A study of Homo sapiens with 6 samples.

Results

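Respiratory chain and mitochondrial import genes were followed in ME-1 leukaemia cells exposed to AI-10-49. The genes were chosen by symbol from the deposited table: rows with 1 symbol that begins with NDUF, UQCR, ATP5, TIMM or TOMM, or with COX and a digit, or that is SDHA, SDHB, SDHC, SDHD, CYC1 or CYCS. This took 71 of the 6339 rows. A further 5 rows that pair such a symbol with another gene's were left out. Among the deposited rows the choice went by symbol alone. The rule that put rows in the table is not known, and nearly all of them differ between the treatments. Genes of these families without a row are not counted, so the counts below do not describe whole families.

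ME-1 is a human acute myeloid leukaemia line with inv(16), the rearrangement that produces the fusion protein CBFβ-SMMHC, and AI-10-49 is an inhibitor of the binding of that protein to RUNX1. The 3 AI-10-49 libraries came from cells given 1 µM for 6 h, and the 3 DMSO libraries from cells given the solvent for the same time, in 3 independent experiments per the labels. Every library is from this 1 line at this 1 dose and time, so neither another line nor a cell without the fusion is compared. Values are FPKM, a level scaled by transcript length and by the size of the library, and the depth of the libraries is unknown.

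The respiratory chain is a row of protein complexes in the inner mitochondrial membrane. Complexes I and II take electrons from NADH and succinate, complex III passes them through cytochrome c to complex IV, and complex IV hands them to oxygen. Complexes I, III and IV pump protons, and the ATP synthase uses the proton gradient to make ATP. All members here are encoded in the nucleus. Most proteins of the complexes therefore enter the organelle through the TOM pore of the outer membrane and the chaperones or TIM translocases behind it. Myeloid leukaemia cells are known to rely strongly on mitochondrial respiration.

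AI-10-49 replicate 2 stood apart from the other 5 libraries, and this bears on every result. Its highest FPKM over all rows was 159, against 1843 and 1877 in AI-10-49 replicates 1 and 3 and 1717 to 2028 in the DMSO libraries, while its median row, at 14.8 FPKM, lay near the 14.3 to 14.6 FPKM of the others. Among the 71 members it was the lowest AI-10-49 library in 66, and its ratio to the mean of replicates 1 and 3 had a median of 1.10 in the 4 members under 20 FPKM, 0.796 in 24 members of 20 to 50 FPKM, 0.588 in 16 of 50 to 100, 0.418 in 17 of 100 to 200 and 0.333 in 10 of at least 200. The other rows of the table showed medians of 1.07, 0.907, 0.717, 0.533 and 0.339 in the same bands. DMSO replicate 3 was the highest DMSO library in 67 members, with a median ratio of 1.13 to the mean of the other two. Results on the members are therefore given with all 6 libraries and with AI-10-49 replicate 2 left out, as the fit on 5 libraries. The labelled cell type was checked on its markers: 8 of 11 myeloid and eosinophil markers had a row and summed to 168 to 202 FPKM with AI-10-49 and 571 to 654 FPKM with DMSO. All 3 T cell markers had a row, with sums of 29.3 to 31.1 FPKM with AI-10-49 and 48.3 to 50.03 FPKM with DMSO, as had 1 of 3 B cell markers, 2 of 4 of fibroblasts and endothelium and 0 of 3 erythroid ones, and their part in the results was not tested. MYC, the gene of a growth-promoting transcription factor, had 27.9, 23.4 and 25.8 FPKM with AI-10-49 and 235, 233 and 242 FPKM with DMSO.

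**Figure D1:**
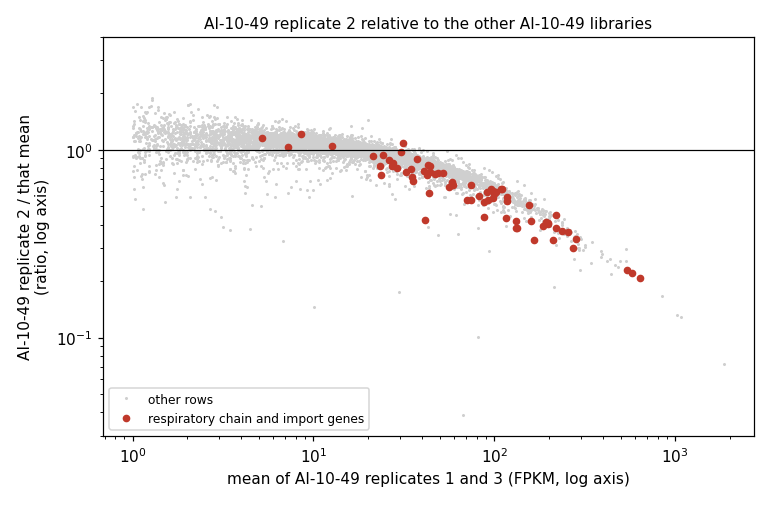
AI-10-49 replicate 2 divided by the mean of AI-10-49 replicates 1 and 3 (log axis), against that mean in FPKM (log axis); red points are the 71 respiratory chain and import genes and grey points the other rows of the table. The ratio falls as the level rises in both, to a median of 0.333 in members and 0.339 in other rows at 200 FPKM or more.

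With all 6 libraries, 40 of the 71 genes fell with AI-10-49, 5 rose and 26 did not pass an adjusted p of 0.05 (limma, Benjamini-Hochberg over all tested rows). All 71 had passed the filter on low values. On 5 libraries, 53 fell, 6 rose and 12 did not pass. The table holds rows that nearly all differ between the treatments: 95.3% of the tested rows passed with all 6 libraries, 46.2% higher and 49.1% lower, and 97.4% on 5 libraries, 46.4% higher and 51.0% lower. A count of passing members is therefore no sign that the genes respond more than others, and 63.4% of the members passed with all 6. The direction was less even. The median log2 fold change of the members was −0.64 with all 6 libraries, beside −0.28 for all tested rows, and −0.34 on 5 libraries, beside −0.21. All rows are not matched to the members for level: the DMSO medians were 104 to 118 FPKM in members and 14.3 to 14.6 FPKM in all rows. Among rows of at least 100 FPKM with DMSO, members had −0.72 beside −0.74 for other rows. On 5 libraries they had −0.30 beside −0.46, so no larger decrease was seen at that level.

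The AI-10-49 and DMSO libraries did not overlap in 61 members, or in 63 without AI-10-49 replicate 2, beside 96.2% and 98.5% of all tested rows. An exact two-sided permutation test of 3 libraries against 3 cannot give less than p = 0.1, the value that each non-overlapping gene reaches, so only the fit across all rows carries a threshold here. Of the members, 43 passed in both fits with the same sign, 16 passed only on 5 libraries, 2 (COX18 and CYCS) only with all 6, and 10 in neither. There were 33 members that passed with the same sign in each of 18 fits, which varied the pseudocount, filter, scaling, block, trend and libraries. Of these, 29 were lower and 4 (COX19, TIMM44, NDUFA5 and NDUFAF1) higher with AI-10-49. The share of all rows that passed in each of the 18 fits was not computed. In single fits 91.9% to 97.6% of all tested rows passed. The 33 are therefore no sign that the members respond more than other rows.

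The split between higher and lower depended on the scaling. Quantile normalization gave 11 higher and 40 lower, cyclic loess normalization 16 higher and 32 lower, and quantile normalization on 5 libraries 17 higher and 40 lower. Of the 40 genes that fell with all 6 libraries, 4 did not pass under quantile and 8 under cyclic loess normalization, and the decrease was over 1.5 times smaller in 18 and 21 of them, and in 12 on 5 libraries. From below 0 with all 6 libraries, 13 members turned to above 0 under quantile, 19 under cyclic loess and 18 under quantile normalization on 5 libraries. Of the members that turned, 4, 9 and 11 passed as higher under these settings. These settings move the median of all rows itself, to −0.06 with quantile and 0.00 with cyclic loess normalization. Relative to the median of all rows, the members' median lay at −0.37 as deposited, −0.12 as deposited on 5 libraries, −0.20 with quantile and −0.15 with cyclic loess normalization. The members are more abundant than most rows, so these differences are not matched for level. The passing share of all rows was 94.9% with quantile normalization, 46.9% higher and 48.0% lower, and 94.4% with cyclic loess, 47.6% higher and 46.8% lower.

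**Figure D2:**
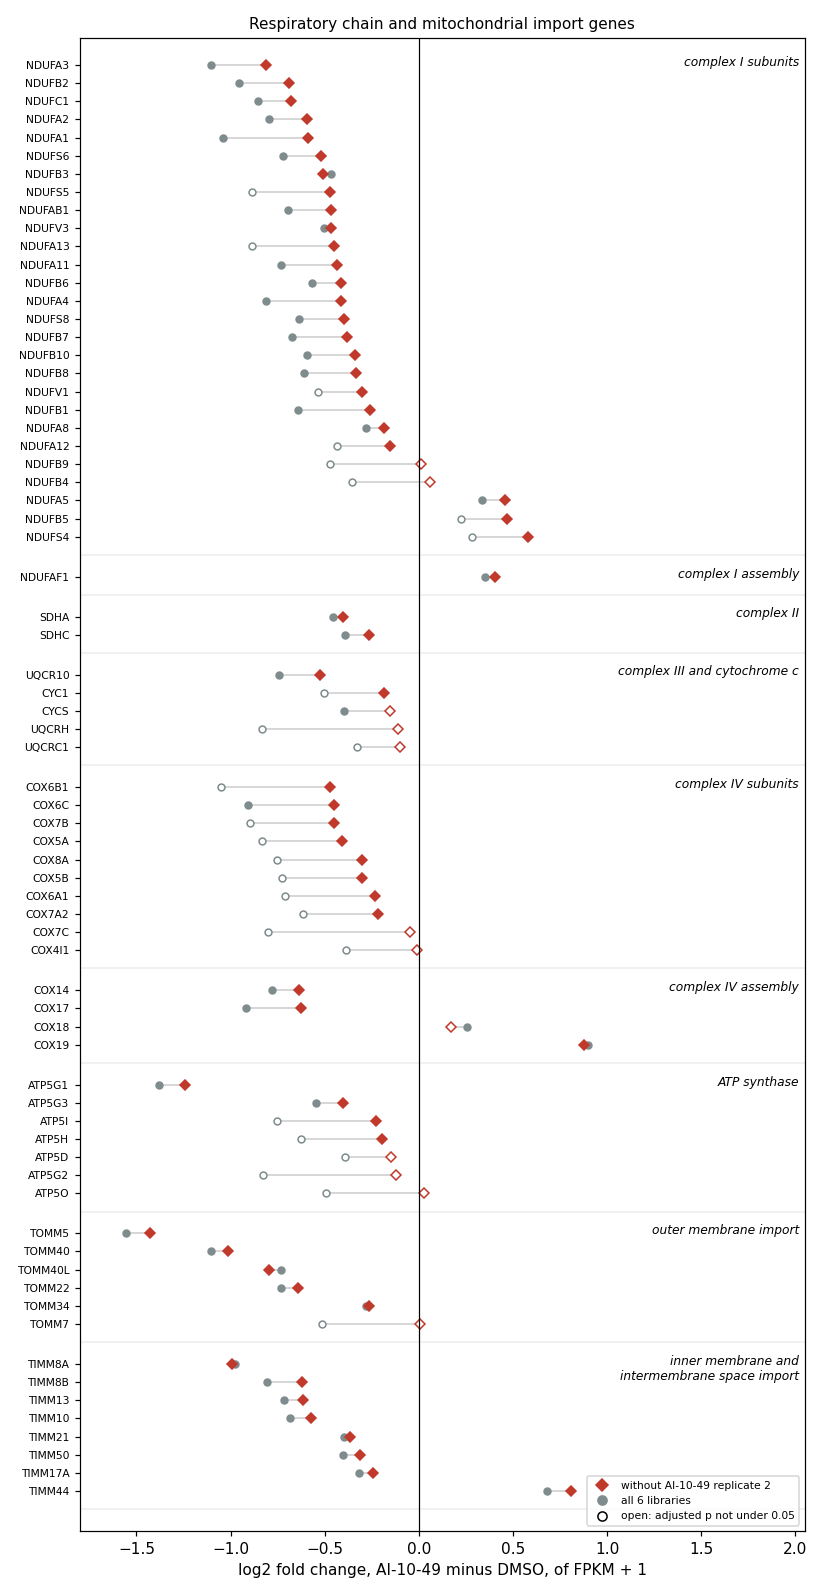
Fitted log2 fold change of FPKM + 1, AI-10-49 minus DMSO, for the respiratory chain and import genes grouped by role, with 1 of the 71 not drawn; red diamonds leave out AI-10-49 replicate 2, grey circles use all 6 libraries, and open symbols did not pass an adjusted p of 0.05. Most genes lie left of 0, TOMM5 farthest at −1.56 with all 6 libraries, and COX19 and TIMM44 lie farthest to the right at 0.90 and 0.68.

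The largest decrease of the 71 genes was in an outer membrane import gene, TOMM5. With all 6 libraries 5 of 6 TOMM genes fell, and the same number fell on 5 libraries and under quantile and cyclic loess normalization, with medians of −0.73, −0.72, −0.63 and −0.61. The medians of all tested rows in these fits were −0.28, −0.21, −0.06 and 0.00. Of all tested rows 95.3% passed with all 6 libraries, 49.1% lower. The TOMM and TIMM genes as classes were not compared with rows of their own level. TOMM5, a small subunit that stabilises the TOM complex, had 44.0, 33.6 and 43.9 FPKM with AI-10-49 and 115, 112 and 134 FPKM with DMSO. All AI-10-49 libraries lay far below all DMSO libraries. The log2 fold change was −1.56 ± 0.15 (SE, adjusted p = 6.9e-07) with all 6 libraries and −1.43 on 5, where the mean FPKM was 2.74-fold lower with AI-10-49. TOMM40, which forms the pore itself, had 44.2, 35.9 and 41.9 FPKM with AI-10-49 and 84.0, 82.8 and 98.2 FPKM with DMSO. These groups did not overlap either, and TOMM40 fell by 1.10 ± 0.12 on the log2 scale (SE, adjusted p = 3.29e-06), or by 1.02 on 5 libraries.

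TOMM22, the central receptor that hands preproteins to the pore, had 42.5, 35.9 and 45.3 FPKM with AI-10-49 and 63.9, 69.0 and 74.5 FPKM with DMSO, again without overlap, and fell by 0.73 with all 6 libraries and by 0.64 on 5. TOMM40L, a paralogue of TOMM40, stood at a far lower level, with 5.02, 6.02 and 5.32 FPKM with AI-10-49 and 9.21, 9.45 and 10.5 FPKM with DMSO. AI-10-49 replicate 2 was the highest of its group in this gene, and TOMM40L fell by 0.73 with all 6 libraries and by 0.79 on 5. TOMM34, a cytosolic co-chaperone of import rather than a subunit of the pore, fell by 0.28 and 0.26. TOMM7, a small subunit known for its part in TOM assembly and in holding PINK1 at the membrane, differed from these: it had 165, 55.0 and 166 FPKM with AI-10-49 and 164, 155 and 175 FPKM with DMSO. AI-10-49 replicates 1 and 3 lay within the DMSO range, replicate 2 far below it, and the log2 fold change was −0.52 (adjusted p = 0.222) with all 6 libraries and 0.01 (adjusted p = 0.924) on 5.

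Behind the pore, 7 of the 8 TIMM genes fell and 1 rose, with the same counts on 5 libraries and under quantile and cyclic loess normalization. Passing is common in this table, with 95.3% of all tested rows with all 6 libraries, 49.1% lower. The larger decreases were in genes of small TIM chaperones, which carry hydrophobic precursors across the intermembrane space. TIMM8A, the gene of deafness-dystonia syndrome, had 6.92, 7.53 and 7.55 FPKM with AI-10-49 and 16.0, 14.3 and 15.9 FPKM with DMSO. The groups lay well apart in a range where AI-10-49 replicate 2 did not read low, and TIMM8A fell by 0.97 ± 0.07 (SE, adjusted p = 4.74e-08) with all 6 libraries and by 0.99 on 5. TIMM8B, its paralogue, fell by 0.81 and 0.62, TIMM13, the partner of TIMM8A, by 0.72 and 0.62, and TIMM10 by 0.69 and 0.58. TIMM13, for example, had 28.4, 23.3 and 29.4 FPKM with AI-10-49 and 41.1, 44.3 and 49.6 FPKM with DMSO.

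Genes of the TIM23 translocase, the inner membrane channel for proteins with a presequence, changed less. TIMM50, its receptor, and TIMM21, which links it to TOM, each fell by 0.40 with all 6 libraries, and by 0.31 and 0.37 on 5. TIMM17A, a channel subunit, fell by 0.32 and 0.24. TIMM44, which tethers the mitochondrial HSP70 motor to this channel, moved the other way, with 48.5, 37.0 and 49.2 FPKM with AI-10-49 and 27.6, 26.3 and 28.5 FPKM with DMSO. Even replicate 2 stood above all DMSO libraries, and TIMM44 rose by 0.68 ± 0.10 (SE, adjusted p = 5.01e-05) with all 6 libraries and by 0.81 on 5, where the mean FPKM was 1.78-fold higher with AI-10-49.

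**Figure D3:**
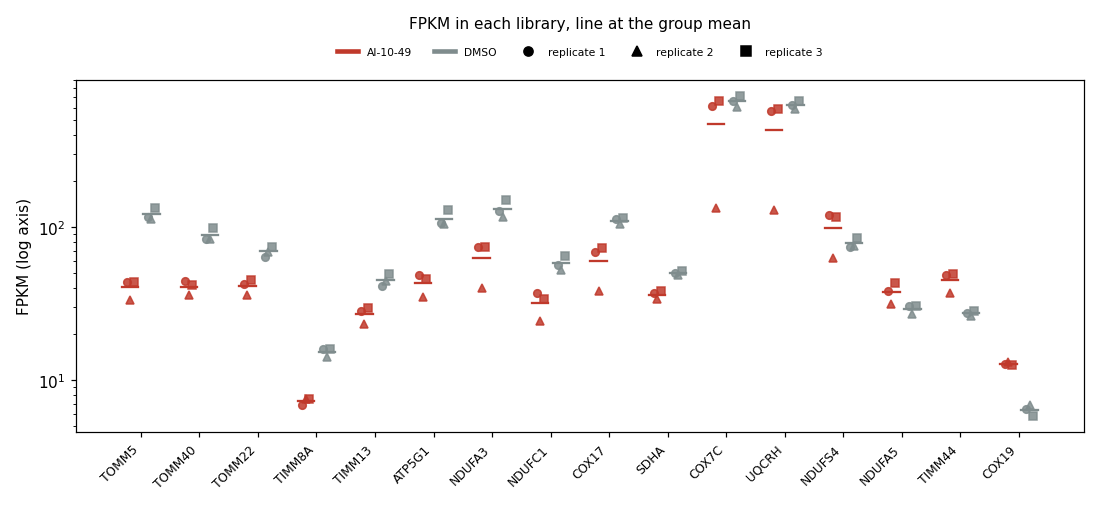
FPKM (log axis) of 16 genes in each library, AI-10-49 in red left of DMSO in grey; circles, triangles and squares are replicates 1, 2 and 3 and lines the group means. TOMM5, TOMM40, TIMM8A and ATP5G1 are lower in all 3 AI-10-49 libraries, COX19 and TIMM44 are higher in all 3, and in COX7C and UQCRH only AI-10-49 replicate 2 lies far from the rest.

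The 28 genes with NDUF symbols of complex I subunits included 19 that fell, 1 that rose and 8 that did not pass with all 6 libraries, and 23 that fell, 3 that rose and 2 that did not pass on 5. Their median log2 fold change was −0.62 and −0.41, and it was −0.26 with quantile normalization (18 lower, 4 higher) and −0.15 with cyclic loess normalization (12 lower, 4 higher). The largest decreases were in accessory subunits, which surround the catalytic core. NDUFA3 had 73.7, 39.8 and 74.4 FPKM with AI-10-49 and 127, 117 and 150 FPKM with DMSO. All AI-10-49 libraries lay below all DMSO libraries, with replicate 2 the lowest, and NDUFA3 fell by 1.10 ± 0.24 (SE, adjusted p = 0.000685) with all 6 libraries and by 0.81 on 5. NDUFB2 fell by 0.95 and 0.69, NDUFC1 by 0.86 and 0.68, and NDUFA1 by 1.04 and 0.59. The call of NDUFA1 was lost without DMSO replicate 3. NDUFA4, whose protein is now assigned to complex IV and whose current symbol is COXFA4, had 40.8, 17.5 and 41.8 FPKM with AI-10-49 and 53.2, 53.4 and 59.3 FPKM with DMSO, without overlap, and fell by 0.81 and 0.41.

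NDUFV1 and NDUFS8 encode core subunits, which hold the flavin and iron-sulphur clusters. NDUFS8 fell by 0.64 with all 6 libraries and 0.40 on 5. NDUFV1 had −0.53 (adjusted p = 0.0535) with all 6 and fell by 0.30 on 5. NDUFV1 did not pass under quantile normalization, and neither gene under cyclic loess normalization. NDUFAB1, the mitochondrial acyl carrier protein, which also serves fatty acid and lipoate synthesis, fell by 0.70 and 0.47 but had −0.14 (adjusted p = 0.0568) under cyclic loess normalization. With all 6 libraries, the calls of NDUFS8 and NDUFAB1 were lost when DMSO replicate 3 was left out, and that of NDUFS8 also without DMSO replicate 1. NDUFA13, given here with the genes of highest FPKM, had 201, 80.1 and 196 FPKM with AI-10-49 and 255, 261 and 301 FPKM with DMSO. The groups were apart, but with all 6 libraries the log2 fold change of −0.88 did not pass (adjusted p = 0.116), while NDUFA13 fell by 0.45 on 5 and had −0.07 (adjusted p = 0.301) under cyclic loess normalization.

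A further 6 accessory subunit genes, NDUFA2, NDUFA11, NDUFB3, NDUFB6, NDUFS6 and NDUFV3, passed in each of the 18 fits. Their log2 fold changes ran from −0.80 (NDUFA2) to −0.46 (NDUFB3) with all 6 libraries and from −0.59 (NDUFA2) to −0.41 (NDUFB6) on 5. NDUFV3, with the lowest FPKM of the 28 with DMSO but for NDUFA5, had 21.9, 19.7 and 20.8 FPKM with AI-10-49 and 30.4, 27.3 and 32.1 FPKM with DMSO, and its replicates were close in both groups. NDUFA8, NDUFB1, NDUFB7, NDUFB8 and NDUFB10 fell in both fits, with log2 fold changes of −0.67 (NDUFB7) to −0.28 (NDUFA8) with all 6 libraries and −0.38 to −0.19 on 5, but each lost its call when DMSO replicate 3 was left out. NDUFB1 and NDUFB8 did not pass under quantile normalization (adjusted p = 0.151 and 0.154), nor did NDUFB1, NDUFB7, NDUFB8 and NDUFB10 under cyclic loess normalization (adjusted p = 0.106 to 0.977), where NDUFB8 had 0.0017. NDUFS5 and NDUFA12 did not pass with all 6 libraries and fell by 0.47 and 0.15 on 5, and neither passed under cyclic loess normalization. NDUFB4 had 129, 54.9 and 134 FPKM with AI-10-49 and 123, 117 and 140 FPKM with DMSO, and NDUFB9 had 256, 92.6 and 253 FPKM with AI-10-49 and 247, 246 and 266 FPKM with DMSO. In both genes AI-10-49 replicates 1 and 3 lay within the DMSO range, and neither passed in either fit. NDUFB9 rose by 0.28 under quantile and by 0.37 under cyclic loess normalization.

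On 5 libraries 3 complex I subunit genes rose. NDUFA5, an accessory subunit of the matrix arm, had 38.1, 31.3 and 43.3 FPKM with AI-10-49 and 30.7, 26.9 and 30.3 FPKM with DMSO. Its lowest AI-10-49 library lay just above its highest DMSO library, and it rose by 0.34 ± 0.11 (SE, adjusted p = 0.00885) with all 6 libraries and by 0.46 on 5. NDUFS4, whose loss causes Leigh syndrome, had 119, 62.5 and 116 FPKM with AI-10-49 and 74.4, 75.5 and 84.5 FPKM with DMSO. Replicates 1 and 3 lay above all DMSO libraries and replicate 2 below them, so NDUFS4 had 0.28 (adjusted p = 0.24) with all 6 and rose by 0.58 on 5 (adjusted p = 1.3e-05). NDUFB5 showed the same pattern, with 93.3, 60.5 and 110 FPKM with AI-10-49 and 72.4, 68.7 and 78.1 FPKM with DMSO, and 0.22 (adjusted p = 0.289) with all 6 libraries against a rise of 0.47 on 5. Both also rose under quantile and cyclic loess normalization, by 0.61 to 0.76. NDUFS4 and NDUFB5 were chosen for naming after their values were seen. NDUFAF1, an assembly factor of complex I, had 25.6, 23.3 and 27.0 FPKM with AI-10-49 and 20.04, 17.7 and 21.2 FPKM with DMSO, without overlap, and rose by 0.35 and 0.41.

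Both measured genes of complex II, the succinate dehydrogenase that also serves the citric acid cycle, fell. SDHA, the flavoprotein that oxidises succinate, had 37.1, 33.6 and 38.0 FPKM with AI-10-49 and 50.1, 48.7 and 51.2 FPKM with DMSO. The replicates were close to each other and the groups apart, and SDHA fell by 0.46 ± 0.09 (SE, adjusted p = 0.000284) with all 6 libraries and by 0.40 on 5. SDHC, a membrane anchor, fell by 0.39 and 0.27. SDHB and SDHD were not analysed here.

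Of the 5 genes of complex III and cytochrome c, 2 fell and 3 did not pass in either fit, though the passing genes differed. UQCR10, a small subunit, had 55.6, 35.5 and 56.5 FPKM with AI-10-49 and 77.0, 76.2 and 91.0 FPKM with DMSO, without overlap, and fell by 0.74 and 0.53. CYC1, cytochrome c1, had −0.50 (adjusted p = 0.175) with all 6 libraries and fell by 0.18 (adjusted p = 0.0383) on 5, with 159, 78.9 and 151 FPKM with AI-10-49 and 171, 168 and 190 FPKM with DMSO. CYCS, cytochrome c itself, had 39.1, 25.6 and 47.6 FPKM with AI-10-49 and 49.1, 45.8 and 49.7 FPKM with DMSO. Its groups overlapped, and it fell by 0.40 (adjusted p = 0.0347) with all 6 libraries but had −0.16 (adjusted p = 0.0826) on 5, and its call was also lost without DMSO replicate 1 or 3 and under quantile and cyclic loess normalization. UQCRH, the hinge protein and the most abundant gene of the class, had 568, 128 and 588 FPKM with AI-10-49 and 624, 591 and 662 FPKM with DMSO. AI-10-49 replicate 2 lay far below every other library, and the log2 fold change was −0.83 (adjusted p = 0.662) with all 6 libraries and −0.11 (adjusted p = 0.299) on 5. The class median of −0.50 with all 6 libraries and −0.16 on 5 turned to 0.06 with quantile and 0.19 with cyclic loess normalization. UQCRC1, a core protein, rose by 0.17 and 0.23 under these normalizations. UQCRH and CYC1 were above 0 without passing under quantile normalization. Both rose under cyclic loess normalization, by 0.33 and 0.19.

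The complex IV subunit genes showed how far 1 library decided a count. Only COX6C of 10 genes passed with all 6 libraries (−0.91, adjusted p = 0.0287), and no gene of the class passed when any 1 DMSO library was left out, while 8 fell on 5 libraries. The 10 genes had medians of 201, 80.9 and 209 FPKM in the AI-10-49 libraries and of 245, 241 and 276 FPKM in the DMSO libraries. On 5 libraries the median log2 fold change was −0.30, beside −0.21 for all rows, and COX6B1, COX6C and COX7B led with decreases of 0.47, 0.45 and 0.45. COX5A, COX5B, COX6A1, COX7A2 and COX8A fell by 0.22 (COX7A2) to 0.41 (COX5A) on 5 libraries, and with all 6 libraries had −0.83 (COX5A) to −0.62 (COX7A2) without passing. COX7C, the most abundant, had 618, 133 and 657 FPKM with AI-10-49 and 661, 602 and 718 FPKM with DMSO. AI-10-49 replicates 1 and 3 lay within the DMSO range, and COX7C had −0.80 (adjusted p = 0.707) with all 6 libraries and −0.05 (adjusted p = 0.684) on 5. COX4I1, a subunit that joins early in assembly, had −0.39 (adjusted p = 0.44) and −0.01 (adjusted p = 0.933). The class median was −0.10 with quantile normalization, with 3 lower and 1 higher, and 0.02 with cyclic loess normalization, with COX6C lower and COX7C and COX4I1 higher.

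The 4 genes for assembly of complex IV went 2 ways. COX17, the chaperone that brings copper to the complex, had 68.4, 38.1 and 73.3 FPKM with AI-10-49 and 113, 104 and 114 FPKM with DMSO. The groups lay apart, and COX17 fell by 0.92 with all 6 libraries and by 0.63 on 5. COX14, which acts early in the making of subunit 1, fell by 0.78 and 0.63. COX19, an intermembrane space protein also needed for this assembly, had 12.8, 13.2 and 12.5 FPKM with AI-10-49 and 6.52, 6.90 and 5.86 FPKM with DMSO. Its 3 AI-10-49 libraries agreed closely and it rose by 0.90 ± 0.07 (SE, adjusted p = 1.23e-07) with all 6 libraries and by 0.88 on 5, where the mean FPKM was 1.97-fold higher with AI-10-49. COX18, which inserts subunit 2 into the membrane, rose by 0.26 (adjusted p = 0.0116) with all 6 libraries and had 0.17 (adjusted p = 0.0538) on 5.

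Among the 7 ATP synthase genes, 2 fell with all 6 libraries and 4 on 5, and ATP5G1 stood far from the other members. ATP5G1, ATP5G2 and ATP5G3 (now ATP5MC1, ATP5MC2 and ATP5MC3) encode the same mature subunit c, the protein of the rotating membrane ring, behind different presequences. ATP5G1 had 48.3, 35.0 and 45.6 FPKM with AI-10-49 and 105, 104 and 130 FPKM with DMSO. All AI-10-49 libraries were under 50 FPKM and all DMSO libraries above 100 FPKM, and ATP5G1 fell by 1.38 ± 0.16 (SE, adjusted p = 3.2e-06) with all 6 libraries and by 1.24 on 5. ATP5G3 had 22.8, 17.3 and 24.4 FPKM with AI-10-49 and 31.2, 29.7 and 33.7 FPKM with DMSO, also without overlap, and fell by 0.54 and 0.40. ATP5G2 had 545, 125 and 543 FPKM with AI-10-49 and 581, 571 and 628 FPKM with DMSO, and did not pass in either fit (−0.83, adjusted p = 0.636, and −0.12, adjusted p = 0.24). It supplied most of the subunit c message: ATP5G1 held 7.84% and 7.45% of the summed FPKM of the 3 genes in AI-10-49 replicates 1 and 3 and 14.7%, 14.8% and 16.4% in the DMSO libraries, and 19.8% in AI-10-49 replicate 2, where ATP5G2 reads low. The sum was 616, 177 and 612 FPKM with AI-10-49 and 717, 705 and 791 FPKM with DMSO.

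The rest of the ATP synthase genes moved little once AI-10-49 replicate 2 was left out. ATP5I and ATP5H, now called ATP5ME and ATP5PD, fell by 0.23 and 0.20 on 5 libraries and did not pass with all 6. Under cyclic loess normalization ATP5H rose by 0.15 and ATP5I had 0.04 (adjusted p = 0.693). ATP5D, of the central stalk, did not pass in either fit. ATP5O, of the peripheral stalk, had 283, 95.02 and 285 FPKM with AI-10-49 and 276, 265 and 294 FPKM with DMSO, so that AI-10-49 replicates 1 and 3 lay within the DMSO range. Its log2 fold change was −0.49 (adjusted p = 0.464) with all 6 libraries and 0.03 (adjusted p = 0.727) on 5, and it rose by 0.29 with quantile and 0.39 with cyclic loess normalization. The class median of −0.62 with all 6 libraries and −0.20 on 5 was 0.00 and 0.09 under these normalizations.

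The relation between level and fold change across the members changed sign with the scaling. Across the 71 genes, which share the 6 libraries, Pearson's r between log2 fold change and mean log2 level was −0.41 (Spearman's rho −0.378) with all 6 libraries and −0.0188 (rho 0.147) on 5. It was 0.224 (rho 0.379) with quantile normalization, 0.240 (rho 0.408) with quantile normalization on 5 libraries and 0.326 (rho 0.448) with cyclic loess normalization. Of the 39 members that averaged at least 100 FPKM with DMSO, 15 fell and 0 rose with all 6 libraries, with a median of −0.72, beside −0.74 for the 363 other rows of that level. On 5 libraries 29 of the 39 fell, with a median of −0.30, beside −0.46 for the other rows, of which 303 fell and 17 rose. The 39 had a median of −0.14 with quantile normalization, beside −0.20 for the other rows, and −0.03 with cyclic loess normalization, beside −0.12. In none of these fits did the abundant members have a lower median than other rows of their level.

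**Figure D4:**
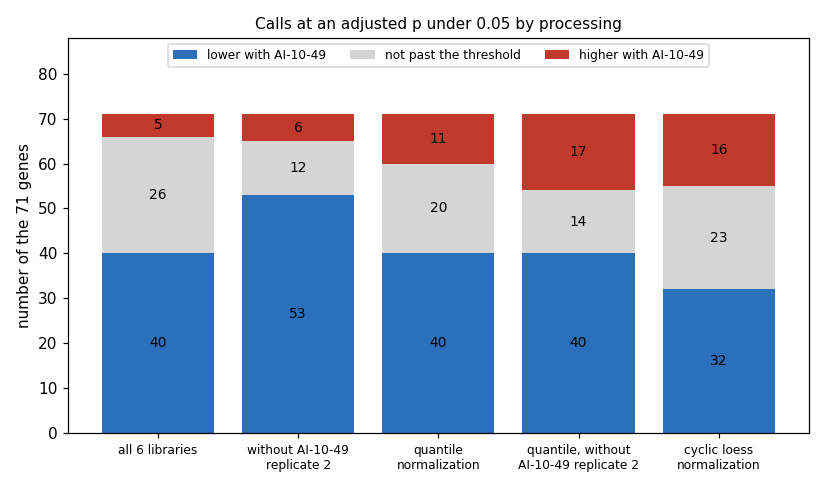
Number of the 71 genes lower with AI-10-49 (blue), not past an adjusted p of 0.05 (grey) and higher (red) under 5 settings of the fit. The lower genes number 40, 53, 40, 40 and 32 from left to right and the higher genes 5, 6, 11, 17 and 16.

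Among the genes that work with these proteins but have other names, the counts of tested members were small. With all 6 libraries, 40 genes of the lists given here and below passed. Of all tested rows 95.3% passed, 46.2% higher and 49.1% lower, and 97.4% passed on 5 libraries. The list counts are therefore no sign that these genes respond more than others. Of 37 listed assembly factors, 11 had a row, and 8 fell and 3 rose in both fits. With all 6 libraries and on 5, TMEM177, an assembly factor of complex IV subunit 2, fell by 1.47 and 1.54, and CCDC56 (now COA3), which acts with COX14, by 0.91 and 0.89. MNF1 (now UQCC2), for complex III, fell by 0.64 and 0.44, and by 0.41 under quantile and 0.33 under cyclic loess normalization. ACAD9, for complex I, fell by 0.60 and 0.64. Of 25 listed import partners, 10 had a row, and 6 rose and 4 fell, or 5 and 4 on 5 libraries. PMPCA, a subunit of the peptidase that removes presequences, fell by 1.07 with all 6 libraries and fell by 1.06 on 5, and CHCHD4, the oxidoreductase that folds small TIM proteins, by 0.77 and 0.78. ROMO1 fell by 0.86 with all 6 libraries, a call lost without DMSO replicate 1 or 3. On 5 libraries ROMO1 fell by 0.45, and by 0.42 under quantile and 0.25 under cyclic loess normalization. IMMP1L, an inner membrane peptidase, rose by 0.82 and 0.81.

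Of 22 listed factors of mitochondrial DNA and biogenesis, 11 had a row, and 8 fell and 3 rose, or 8 and 2 on 5 libraries. PPRC1 and PPARGC1B, coactivators of the PGC-1 family, fell by 1.69 and 1.52 with all 6 libraries and by 1.72 and 1.48 on 5. PPRC1 had 11.1, 11.3 and 10.1 FPKM with AI-10-49 and 36.7, 38.8 and 35.8 FPKM with DMSO. C10orf2, which encodes the mitochondrial helicase Twinkle, fell by 1.56 and 1.59 in these fits, and CLPP, a matrix protease, by 0.75 and 0.68. Of 17 listed genes of the citric acid cycle and pyruvate dehydrogenase, 7 had a row, and 4 fell and 2 rose, or 5 and 2 on 5 libraries. DLAT and PDHA1, of the pyruvate dehydrogenase complex, fell by 0.67 and 0.29 with all 6 libraries and by 0.60 and 0.24 on 5. IDH3A fell by 0.62 and 0.64 and PDHX rose by 0.35 in both fits. Both channel genes with a row, of 8 listed, fell: VDAC1, the main pore for metabolites in the outer membrane, by 1.01 and VDAC3 by 0.88, or by 0.76 and 0.64 on 5 libraries, 0.49 and 0.39 under quantile and 0.38 and 0.32 under cyclic loess normalization.

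Promoters of the members were read for the letters of known sites. The E-box is a site that the MYC protein binds, and a part of MYC in the changes of these genes was not tested. RefSeq windows of 300 bases, from 250 bases before to 50 after the start, matched 60 of the 71 genes (GRCh38.p14, a later build than that of the FPKM). The letters CACGTG, the E-box, which read the same on both strands, stood in the window of 6 of these 60 genes. That is 10%, near the 8.78% of all 27305 genes with a RefSeq window. The 6 genes were lower on 5 libraries, as were 45 of the 60 matched (6 of 45 lower genes held it, 0 of 5 higher and 0 of 10 not passing). The motif was searched after the values were seen. The sites are shown because ATP5G1 and TIMM8A are among the larger decreases; each is 30 bases on the gene's strand with the motif in capitals, and lies at chr17:48892779-48892808 (plus), chrX:101348697-101348726 (minus), chr12:50112171-50112200 (plus), chr11:57530738-57530767 (minus), chr19:5903905-5903934 (minus) and chr4:674421-674450 (minus), in this order.
ATP5G1: gaaggtccaggaCACGTGggtgggggaagc
TIMM8A: ccgtcgcggagaCACGTGaaggtcggtgcg
COX14: ggacgctaccctCACGTGtctggttccgag
TIMM10: ccggaagtaaccCACGTGcttccgctggag
NDUFA11: ggcctggggatgCACGTGctactctcttcc
ATP5I: gcgcgtgcgcctCACGTGacgtcaccgccg

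In ATP5G1 the motif begins at base 5 and in TIMM8A at base 29, counted from the start as base 1, and in COX14, TIMM10, NDUFA11 and ATP5I it begins 53, 1, 132 and 162 bases before it. TIMM10 fell by 0.58, COX14 by 0.63, NDUFA11 by 0.43 and ATP5I by 0.23 on 5 libraries. TOMM40 and NDUFA3, which fell more than these, had no such letters in the window, and TOMM5 had no window. The letters GCGCATGC, the core of the site of NRF1, a factor known for respiratory chain genes, or their reverse complement stood in the windows of 12 of 60 genes, beside 3.68% of all genes with a window. Overlapping matches on both strands were counted once per gene. All genes with a window include genes without a row here, and they were not matched to the members for level or base content. The split that follows was made after the values were seen and rests on the fit on 5 libraries. With all 6 libraries COX18 and CYCS passed, and COX18 passed in 16 of the 18 fits. ATP5G2, TOMM7 and NDUFB4 rose by 0.15, 0.26 and 0.32 under quantile normalization on 5 libraries. The split therefore does not hold in each fit. On 5 libraries the genes that did not pass were 5 of the 12: 5 of the 10 such genes matched held the letters, beside 6 of 45 lower and 1 of 5 higher genes. The sites of these 5 are shown for that reason, with the motif in capitals on the gene's strand, at chr4:73069745-73069774 (minus), chr7:25125411-25125440 (minus), chr12:53676105-53676134 (minus), chr7:22822954-22822983 (minus) and chr3:120596166-120596195 (plus), in this order.
COX18: tgcaggcaggcGCGCATGCgctttatgccc
CYCS: catgctcgccaGCATGCGCgcgcaggtcct
ATP5G2: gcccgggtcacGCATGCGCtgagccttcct
TOMM7: atcgcaaccacGCATGCGCctactactgcc
NDUFB4: aagagcacttcGCGCATGCgcatatcaccg

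Among the subunit c genes the 2 motifs stood in different windows, CACGTG on ATP5G1 and the NRF1 letters on ATP5G2. COX17, which fell, held the NRF1 letters too, and ATP5I held both motifs. The letters CCGGAAGT, of the site of ETS factors such as GABPA, or their reverse complement stood in 7 of 60 windows, beside 4.95% of all genes with a window, and AAGATGGC, of the site of YY1, or its reverse complement in 7 of 60, beside 3.52%. These shares of all genes with a window are not matched to the members either. A match says only that the letters are there.

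Some members have near-identical copies elsewhere in the genome, and the sources used here do not say how the authors' counting shared their fragments. The annotation names at least 1 pseudogene after 35 of the 71 genes. CYCS has 40, COX6C 17 and NDUFA5 and NDUFB4 12 each, so the FPKM of these 4 genes are uncertain. Genes with fewer, among them ATP5G1 and COX6B1 with 7 each, TOMM22 with 6 and NDUFA3 with 5, are open to the same doubt.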

How the data were processed

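RNA of ME-1 cells (AI-10-49 or DMSO, 3 libraries each) was measured by RNA-seq. The authors' deposited table gives FPKM for 6339 rows, 1 column per library. Alignment and quantification tools were Cufflinks 2.2.0, Cuffdiff and Bowtie2 2.1.0 with build hg19, per the submitters' processing notes. The sources used here give no rule for which rows were kept, and nearly all rows differ, so p-values are not those of a whole transcriptome. Control and treated columns 1 to 3 were read as DMSO and AI-10-49 replicates 1 to 3. Depth is unknown, so no counting interval is given.

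The 6230 rows whose AI-10-49 or DMSO mean reached 1 FPKM were tested as log2(FPKM + 1) with limma 3.58.1 in R 4.3.3, two-sided, with a variance trend. Differences are AI-10-49 minus DMSO. P-values were adjusted by Benjamini-Hochberg over all tested rows, threshold 0.05. The log2 scale with 1 added understates changes of low genes. Fold differences in FPKM are ratios of group means. The procedure was tested on simulated data in which most rows did not change and no library read low in abundant rows. That test therefore does not cover the effect of AI-10-49 replicate 2. The fit without AI-10-49 replicate 2 tested 6228 rows. Alternatives were pseudocounts of 0.1 and 0.5, no filter or one at 5 FPKM, quantile, median and cyclic loess scaling, the replicate block, no trend, each library left out in turn and a 0.01 threshold. Python 3.11.15, pandas 2.3.3, NumPy 2.4.6 and Matplotlib 3.10.9 were used. Members, lists and tests were chosen with earlier results of these data known. Named genes were, per role, the 5 largest passing changes, the most abundant gene, genes against their class and those that lost a call or turned without AI-10-49 replicate 2, plus complex II and cytochrome c genes, MYC and up to 4 per other list. Other members named were chosen after their values were seen. Promoter sequences came from RefSeq (GRCh38.p14). The values of 1 member are not reported here, but it is counted.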

Additional observations from a re-analysis of the deposited data

How the results depend on the processing

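Of 629 values of the 37 members named by rule under the alternatives, 577 kept their direction and side of the threshold, 14 lost and 7 gained a call, and 31, in 8 members, turned sign. Among other named genes 321 of 323 values held and 2 lost a call. The number of higher members was 5 with all 6 libraries, 11 with quantile, 16 with cyclic loess and 17 with quantile normalization without AI-10-49 replicate 2, and the median log2 fold change of −0.64 moved to −0.15 with cyclic loess and −0.16 with quantile normalization without that library. Leaving out 1 library in turn gave 34 (without DMSO replicate 3) to 59 passing members (without AI-10-49 replicate 2), and −0.78 to −0.34 for their median. Over all 71 members, 20 turned from below 0 with all 6 libraries to above 0 in at least 1 fit, and the cause was not tested. Of these only NDUFB8 had passed with all 6 libraries (−0.61, against 0.0017 with cyclic loess normalization). The other 11 outside the rule, ATP5D, ATP5H, ATP5I, COX4I1, COX5B, COX6A1, COX7A2, COX8A, NDUFA12, NDUFV1 and UQCRC1, reached at most 0.035 (COX7A2) to 0.41 (COX4I1). The values of the 8 members named by rule follow. Quantile normalization gave ATP5G2 0.12, ATP5O 0.29, COX7C 0.045, CYC1 0.060, NDUFB4 0.092, NDUFB9 0.28 and UQCRH 0.091. Cyclic loess normalization gave ATP5G2 0.31, ATP5O 0.39, COX7C 0.39, CYC1 0.19, NDUFB4 0.23, NDUFB9 0.37, TOMM7 0.15 and UQCRH 0.33. Quantile normalization without AI-10-49 replicate 2 gave ATP5G2 0.15, ATP5O 0.35, COX7C 0.11, CYC1 0.040, NDUFB4 0.32, NDUFB9 0.33, TOMM7 0.26 and UQCRH 0.12. Median scaling without that library gave ATP5O 0.032, NDUFB4 0.063, NDUFB9 0.014 and TOMM7 0.010. Leaving out 1 library in turn gave ATP5O −0.76 to 0.029, NDUFB4 −0.58 to 0.060, NDUFB9 −0.72 to 0.011 and TOMM7 −0.78 to 0.0072, the highest value each time without AI-10-49 replicate 2. The correlation of fold change with level was −0.41 with all 6 libraries, 0.224 with quantile, 0.326 with cyclic loess, 0.240 with quantile normalization without AI-10-49 replicate 2, −0.0188 with median scaling without it, and −0.588 to −0.0188 over the fits that leave out 1 library.

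Same-numbered AI-10-49 and DMSO libraries deviated together with correlations of −0.15, 0.147 and 0.247 across rows, so the numbers were not taken as pairs, and the fit with the replicate block called 49 members and 6015 rows. Depth limits cannot be given, since FPKM carry no counts.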
